A study of Mus musculus with 12 samples.

Results

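The genes described here encode the protein complexes of the mitochondrial respiratory chain and the ATP synthase, with the assembly factors that share their names. They were chosen by symbol among the protein-coding genes of the GENCODE M21 annotation of the mouse genome (build GRCm38). The symbols were the Nduf genes of complex I, the Sdha to Sdhd and Sdhaf genes of complex II, the Uqcr genes and Cyc1 of complex III, Cycs for cytochrome c, the Cox4 to Cox8 genes of complex IV, the Atp5 genes of complex V, and the genes of the mitochondrial genome, whose symbols start with mt-. The rule gave 113 genes, 100 nuclear and 13 mitochondrially encoded, beside 22141 genes in the whole table. Of these, 112 had at least 1 count, and 108 passed the filter on low counts and were tested (95 nuclear and all 13 mitochondrially encoded). The 5 that were not tested were Cox6b2, Cox7b2, Cox8b, Cox8c and a second Ensembl entry of Atp5o, and none of them reached 0.290 CPM (a gene's counts scaled to a common library size) in any library.

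The measurements were RNA sequencing counts of pancreatic islets, in which insulin-secreting beta cells are the main cell type. Islets of male wild-type (WT) mice aged 10 to 12 weeks were cultured ex vivo in lots of about 120. There were 4 groups of 3 libraries: vehicle, vehicle with C3a (a fragment of complement component C3), palmitate (a saturated fatty acid), and palmitate with C3a. The labels used here name no dose, no time and no animal of origin for a library. Sequencing batch 1 held replicate 1 of the 4 groups, and batch 2 held replicates 2 and 3.

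As background, complexes I and II pass electrons from metabolic fuels to coenzyme Q, complex III passes them on to cytochrome c, and complex IV hands them to oxygen. Complexes I, III and IV pump protons, and complex V uses the proton gradient to make ATP, which in beta cells couples glucose breakdown to insulin release. Complexes I, III, IV and V are built from subunits of both genomes, while complex II is wholly nuclear, and mt-Nd6 is the only mitochondrial protein-coding gene transcribed from the light strand.

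The 4 libraries of batch 1 held 22216420 to 26110989 counts, and the 8 of batch 2 held 35876350 to 50264695. The 7 beta cell markers summed to between 132700 and 190300 CPM in every library, nearly all of it from the hormone genes Ins1, Ins2 and Iapp. Of the other 4, the glucose transporter Slc2a2 had 511.5 to 606 CPM in the 6 libraries without palmitate and 243.5 to 331 CPM in the 6 with it. It was the only beta cell marker of the 7 whose ranges did not overlap. Iapp had 19320 to 21440 CPM without palmitate and 19010 to 25440 CPM with it, and Ucn3 had 565.4 to 668.6 and 440.4 to 572.6 CPM. Of the other cell types checked, the 6 endothelial markers summed to 159.3 to 226 CPM without palmitate and to 95.6 to 165 CPM with it. Among them, Kdr had 42.05 to 61.35 CPM without palmitate and 17.63 to 32.2 CPM with it. Emcn had 11.22 to 17.99 and 4.861 to 10.11 CPM. The ranges of the other endothelial markers overlapped. The 4 duct markers summed to 89.4 to 177 CPM without palmitate and to 209.8 to 311 CPM with it, and Spp1 made up most of that sum. The 9 pericyte and fibroblast markers summed to 1459 CPM in replicate 3 of palmitate with C3a and to 206 to 790.4 CPM elsewhere, with collagen genes as the largest part. In replicate 1 without C3a this sum was higher with palmitate, at 790.4 against 731.2 CPM. It was also higher in replicate 3 with C3a, at 1459 against 444.5 CPM, and lower in the other same-numbered pairs. Of these 9 markers, Pdgfrb had 42.0 to 63.0 CPM without palmitate and 22.7 to 39.7 CPM with it. Rgs5 had 32.3 to 57.6 and 21.7 to 31.9 CPM, and Kcnj8 had 7.02 to 9.93 and 2.53 to 6.36 CPM. Each of these was without overlap, while the ranges of the other markers of the list, collagen genes among them, overlapped. The sums of the alpha, delta, macrophage and acinar markers had overlapping ranges with and without palmitate. Markers of 1 cell type could differ in direction. The macrophage marker Cd68 had 22.4 to 29.0 CPM without palmitate and 34.6 to 48.4 CPM with it. Another, C1qa, had 83.2 to 97.8 and 46.6 to 76.5 CPM. The part of these cell types in the results below was not tested, and in bulk RNA fewer cells of a type cannot be told apart from less RNA per cell.

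Levels were compared between genes per transcript length, as TPM (counts divided by transcript length, then scaled to a common total). In vehicle islets the median of the nuclear genes' mean levels was 106 TPM, and that of the 13 mitochondrially encoded genes was 3059 TPM. Among nuclear genes, Atp5b, the catalytic beta subunit of ATP synthase, was highest at 507.5 ± 20.9 TPM (SD, n = 3). Complex V subunits had the highest class median, 188 TPM, followed by complex IV with 168 and complex III with 124 TPM. Complex I assembly factors, which act during construction and do not stay in the finished complex, had a median of 11.2 TPM and reached 26.9 TPM (Ndufaf8). Cycs, the soluble electron carrier, was measured at 17.97 ± 4.69 TPM (SD, n = 3). Within the mitochondrial genome, mt-Co1, the catalytic subunit of complex IV, was highest at 7688 ± 1162 TPM (SD, n = 3).

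**Figure D1:**
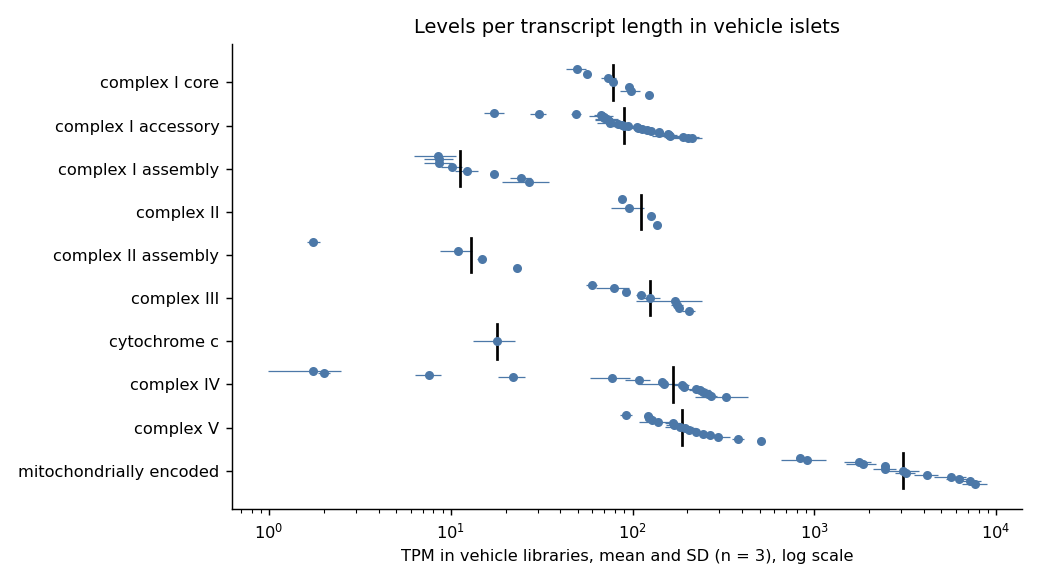
Level per transcript length of each tested gene in vehicle islets, as mean TPM with SD (n = 3) on a log axis, by complex; black lines are class medians, Atp5s is not drawn, and mt-Nd6 has no error bar because its SD exceeded its mean. The mitochondrially encoded genes lie to the right, and the assembly factors of complex I around their median of 11.2 TPM lie to the left.

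Palmitate was compared with vehicle in islets without C3a, and separately in islets with C3a; the 2 comparisons share no library. The average palmitate effect, the mean of both, uses all 12 libraries. Some of the nuclear genes of the chain rose with palmitate, more of them than fell, and most did not pass the test in the separate comparisons. Without C3a, 38 of the 95 tested nuclear genes rose and 1 fell (edgeR, Benjamini-Hochberg adjusted p under 0.05), while 13.4% of the 15794 genes tested rose and 12.0% fell, 25.4% in all. With C3a, 33 rose and 3 fell, beside 13.8% and 13.1% of all genes, 26.9% in all. In the average effect 59 rose and 5 fell, beside 20.3% and 19.4% of all genes, 39.7% in all. The median log2 change of the 95 genes was 0.18 without C3a, 0.14 with C3a and 0.16 on average, which is a 1.12-fold median level on average; the medians over all genes were -0.015, 0.011 and -0.001.

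There were 28 nuclear genes that rose in both comparisons, 73.7% of those that rose without C3a and 84.8% of those that rose with it. Over all genes tested 1744 rose in both, 82.6% and 80.2% of those that rose in each, so the members' shares lay near the background. All 38 and all 33 were higher in palmitate in each of the 3 same-numbered pairs of libraries, as were 99.7% and 99.5% of all genes that rose. For 22 and 18 of them (57.9% and 54.5%) the ranges of the 2 groups did not overlap, beside 76.7% and 78.3% of all genes that rose. The counts moved with single libraries: without replicate 3 of palmitate 24 genes rose in place of 38, and with C3a 17 and 21 rose in place of 33 without replicate 2 of vehicle with C3a or replicate 3 of palmitate with C3a. In batch 2 alone, with 2 libraries a group, 19 and 18 nuclear genes rose, and 47 in the average effect. Of the genes that fell, the 3 with C3a became 1 without replicate 3 of vehicle with C3a or replicate 1 or 2 of palmitate with C3a, and the 1 without C3a became 2 without replicate 2 of palmitate.

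None of the 13 mitochondrially encoded genes passed the test in any of these 3 comparisons. Their median log2 change was -0.12 without C3a, -0.08 with C3a and -0.13 on average. The median with C3a turned positive, at 0.10 and 0.003, without replicate 2 of vehicle with C3a or replicate 3 of palmitate with C3a. By edgeR 0 of the 13 had an unadjusted p under 0.05 in each of the 3 comparisons, and DESeq2 also called 0. The difference between the 2 genomes as groups was not tested, because the genes were chosen with results of these data known.

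**Figure D2:**
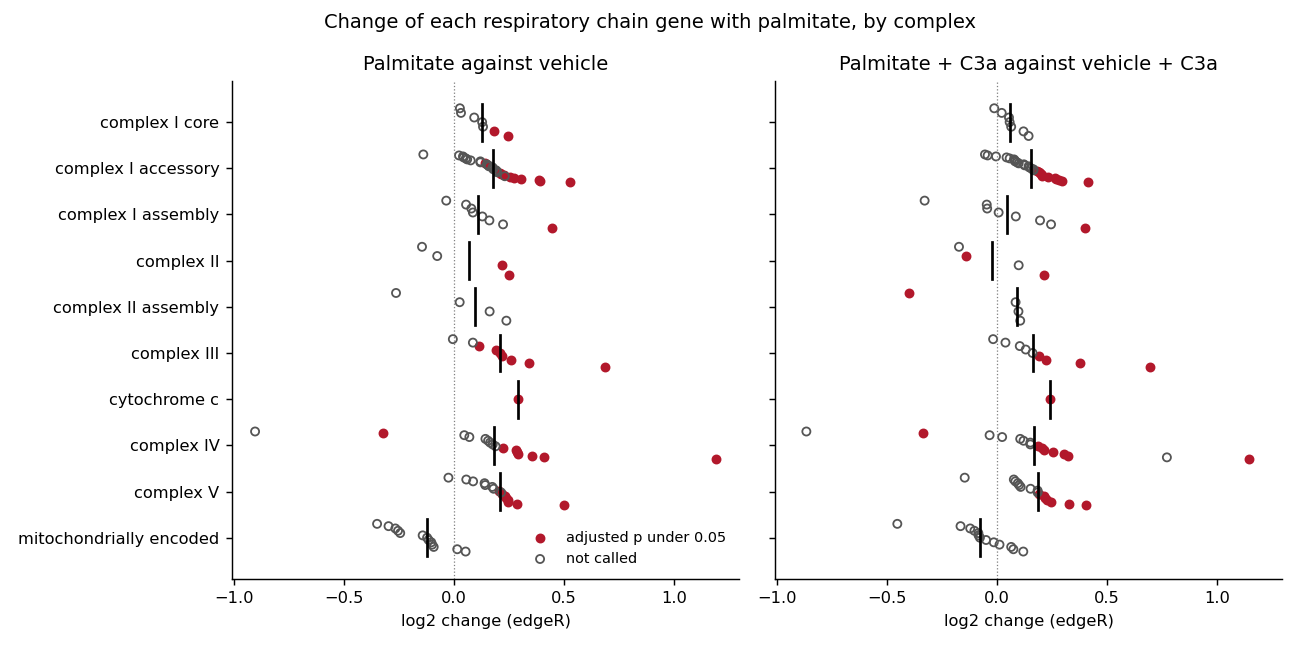
Log2 change of each tested gene (edgeR) in palmitate against vehicle, left without C3a and right with C3a, by complex; each circle is a gene, filled where the adjusted p is under 0.05, black lines are class medians, and Atp5s is not drawn. Most nuclear genes lie to the right of 0, with medians of 0.18 and 0.14, and the mitochondrially encoded genes lie mostly to the left, with medians of -0.12 and -0.08.

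Summed over all nuclear members, the vehicle libraries held 6510, 6973 and 7085 CPM (replicates 1, 2 and 3) and the palmitate libraries 7223, 7549 and 8342 CPM. With C3a the sums were 6660, 6798 and 7269 CPM for vehicle and 6980, 7774 and 8028 CPM for palmitate. Every palmitate library was above its same-numbered vehicle library, and the ranges overlapped with C3a but not without it. The 12 heavy-strand mitochondrial genes (all but mt-Nd6) summed to 27340, 33730 and 31980 CPM in vehicle and to 20590, 32560 and 30720 CPM in palmitate. With C3a they summed to 22320, 37020 and 26870 CPM in vehicle and to 24320, 31150 and 28630 CPM in palmitate. In these sums, palmitate was lower in all 3 pairs without C3a and in 1 of 3 pairs with C3a, and the libraries of a group spread widely.

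**Figure D3:**
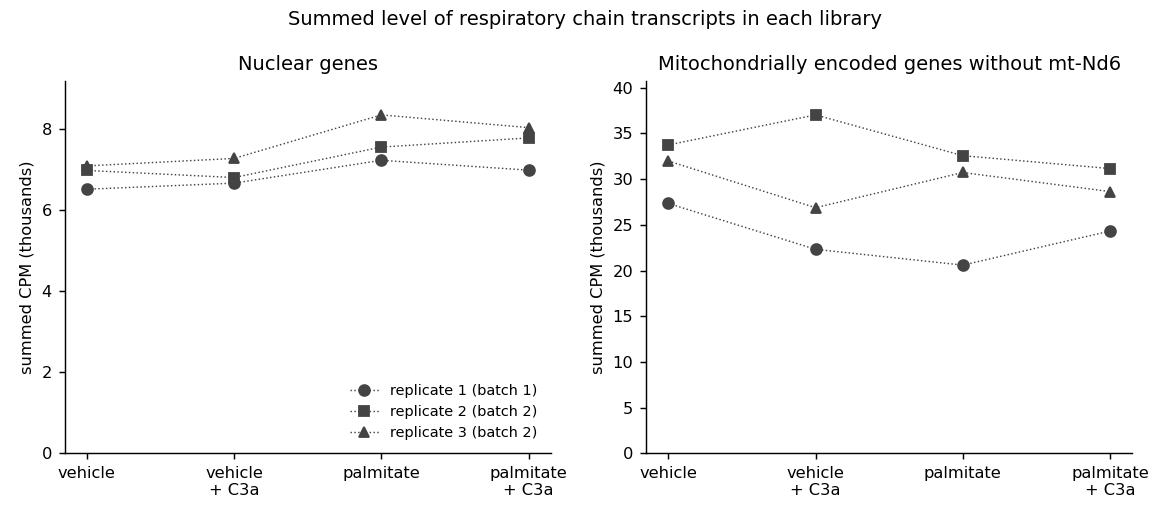
Summed CPM in each library of the nuclear genes (left) and of the mitochondrially encoded genes without mt-Nd6 (right), in kilo-CPM, by group; symbols are replicates, and dotted lines join same-numbered libraries. The nuclear sums run from 6510 to 8342 CPM and are higher with palmitate in each pair, while the mitochondrial sums run from 20590 to 37020 CPM and are higher with palmitate in 2 of the 3 pairs with C3a only.

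Complex I takes electrons from NADH. Of its 36 nuclear subunits, 22 rose and 0 fell in the average palmitate effect, namely 3 of the 7 core subunits (median log2 change 0.10) and 19 of the 29 accessory subunits (median 0.17). In the separate comparisons 12 rose without C3a, 2 of them core subunits, and 12 with C3a, none of them core subunits (2 core subunits had an unadjusted p under 0.05 by edgeR, and DESeq2 called 0). Ndufc2, a membrane-arm accessory subunit, was measured at 76.6, 99.3 and 103.5 CPM in vehicle, against 105.0, 137 and 162 CPM in palmitate. With C3a, Ndufc2 stood at 74.5, 96.0 and 109.1 CPM in vehicle, against 91.8, 139 and 144 CPM in palmitate. Every palmitate library was above its same-numbered vehicle library. The log2 change of Ndufc2 was 0.53 ± 0.071 (SE) without C3a and 0.41 ± 0.071 with it (edgeR adjusted p = 0.000298 and 0.00129), the highest of the complex I subunits in both.

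The accessory subunits Ndufa5 and Ndufb6 followed. Ndufa5 rose by 0.39 and 0.30 on the log2 scale without and with C3a (edgeR adjusted p = 0.00116 and 0.00591), although with protein-coding transcripts alone its adjusted p with C3a was 0.136. Ndufb6 had 31.3 to 35.9 CPM in vehicle, against 41.4 to 44.4 CPM in palmitate, and these ranges did not overlap. Its log2 change was 0.39 without C3a and 0.27 with C3a (edgeR adjusted p = 0.00315 and 0.0221). With C3a, Ndufa12 rose by 0.28 (edgeR adjusted p = 0.00804).

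Among the core subunits, Ndufv1, the NADH-binding flavoprotein, rose on average by 0.12 (edgeR adjusted p = 0.00975). Ndufv2, an iron-sulfur subunit beside Ndufv1, had log2 changes of 0.25 without C3a and 0.05 with C3a, and its call without C3a ended (edgeR adjusted p up to 0.0651) when replicate 2 or 3 of vehicle or replicate 1 or 3 of palmitate was left out. The average call of Ndufv2 (log2 change 0.15) also ended without replicate 2 of vehicle, 1 or 2 of vehicle with C3a, or 1 or 3 of palmitate, at an adjusted p of up to 0.0562. Ndufs1, the large iron-sulfur subunit, had a log2 change of 0.01 ± 0.026 on average.

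Of the 8 complex I assembly factors, 2 rose on average and 0 fell. Ndufaf4 was measured at 15.2, 18.4 and 15.9 CPM in vehicle, against 22.5, 22.3 and 22.8 CPM in palmitate, and at 15.4, 16.7 and 17.3 against 20.3, 21.7 and 23.1 CPM with C3a. No palmitate library of Ndufaf4 was as low as any vehicle library. Its log2 change was 0.45 ± 0.067 without C3a and 0.40 ± 0.067 with it (edgeR adjusted p = 0.000616 and 0.00119); with protein-coding transcripts alone the latter adjusted p was 0.0540. Ndufaf5 rose on average by 0.23 (adjusted p = 0.0397), and this call ended in 9 of the 12 fits that each left out 1 library (adjusted p up to 0.107), the exceptions being those without replicate 3 of vehicle, 3 of vehicle with C3a and 2 of palmitate.

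Complex II, succinate dehydrogenase, is also an enzyme of the citric acid cycle, and of its 4 subunits 2 rose and 2 fell in the average palmitate effect. In the separate comparisons 2 rose and 0 fell without C3a, and 1 rose and 1 fell with C3a. Sdhb, the iron-sulfur subunit, had 69.3, 64.2 and 68.7 CPM in vehicle, against 78.5, 76.5 and 84.9 CPM in palmitate, with no overlap. It rose by 0.25 without C3a and by 0.21 with C3a (edgeR adjusted p = 0.00672 and 0.0138); the latter was 0.0687 without replicate 2 of vehicle with C3a. Sdhc, a membrane anchor, rose on average by 0.16 (edgeR adjusted p = 0.00822).

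Sdhd, the other membrane anchor, had 115.8, 108.7 and 116 CPM in vehicle, against 108.5, 94.4 and 105 CPM in palmitate, so each palmitate library was below its same-numbered partner. With C3a, Sdhd had 121, 107 and 117 CPM in vehicle, against 101, 96.8 and 107.7 CPM in palmitate. Sdhd fell by 0.16 on average (edgeR adjusted p = 0.0116), with 0.109 and 0.0554 in the separate comparisons. With the replicate number as a block, Sdhd passed in both of them (adjusted p = 0.0169 and 0.00639). Sdha, the flavoprotein that oxidises succinate, had 236 to 254 CPM in vehicle, against 223 to 237 CPM in palmitate, and fell by 0.11 on average (edgeR adjusted p = 0.00701). The log2 change of Sdha was -0.076 without C3a, which did not pass, and -0.14 with C3a, which passed. In batch 2 alone the average changes of Sdhd and Sdha were -0.15 and -0.10 and did not pass (adjusted p = 0.0969 and 0.0732).

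Of the 4 complex II assembly factors, Sdhaf4, which acts on the flavoprotein subunit, fell by 0.33 on average (edgeR adjusted p = 0.00758; 0.0958 in batch 2 alone) and had 10.1 to 11.6 CPM in vehicle, against 7.75 to 10.2 CPM in palmitate. The log2 change of Sdhaf4 was -0.263 without C3a, which did not pass, and -0.401 with C3a, which passed. Sdhaf1, which helps to fit the iron-sulfur clusters of Sdhb, rose on average by 0.13 (adjusted p = 0.0383). This call of Sdhaf1 held only in the fits without replicate 3 of vehicle, 3 of vehicle with C3a or 2 of palmitate among the 12 that each left out 1 library, and DESeq2 gave an adjusted p of 0.0680. With the replicate block Sdhaf1 also passed without C3a (adjusted p = 0.0442). Sdhaf2 and Sdhaf3 had average log2 changes of 0.06 and 0.17 and did not pass.

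Of the 9 nuclear members of complex III, 7 rose on average and 0 fell; 7 rose without C3a and 4 with C3a. Uqcrq, a small structural subunit, was measured at 42.4, 81.3 and 84.6 CPM in vehicle, against 75.3, 120.1 and 136 CPM in palmitate. With C3a, Uqcrq was measured at 56.3, 79.5 and 85.8 CPM in vehicle, against 96.9, 126 and 131 CPM in palmitate. Replicate 1 of every group, sequenced in batch 1, was the lowest of its group, and each palmitate library was above its partner. The log2 change of Uqcrq was 0.69 ± 0.10 in both comparisons (edgeR adjusted p = 0.000744 and 0.000642).

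Cyc1, the cytochrome c1 that passes electrons on to cytochrome c, was higher in every palmitate library. It had 61.1, 59.0 and 64.0 CPM in vehicle, against 79.8, 75.5 and 77.7 CPM in palmitate, and 60.3, 59.5 and 64.9 against 78.1, 81.5 and 80.4 CPM with C3a. Both palmitate groups lay wholly above both vehicle groups. The log2 changes of Cyc1 were 0.34 ± 0.049 and 0.38 ± 0.049 (edgeR adjusted p = 0.000461 and 0.000204). Uqcrb rose by 0.24 on average, and Uqcr10 had a log2 change of -0.01. Cycs, cytochrome c itself, rose by 0.29 without C3a and by 0.24 with C3a (edgeR adjusted p = 0.00407 and 0.0112), and without replicate 2 of vehicle with C3a or replicate 3 of palmitate with C3a the latter was 0.0541 and 0.0523.

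Complex IV, cytochrome c oxidase, has subunits that exist as alternative isoforms, and 11 of its 16 tested nuclear members rose while 2 fell on average; 7 rose and 1 fell in each separate comparison. Cox6a2, the isoform known from heart and skeletal muscle, showed the largest log2 change of all members. It was measured at 12.6, 9.59 and 8.28 CPM in vehicle, against 23.0, 20.7 and 24.4 CPM in palmitate. With C3a it was measured at 16.4, 9.37 and 7.83 CPM in vehicle, against 23.4, 21.0 and 26.2 CPM in palmitate. All 6 palmitate libraries were above all 6 vehicle libraries. The log2 change of Cox6a2 was 1.19 ± 0.20 without C3a and 1.14 ± 0.20 with it (edgeR adjusted p = 0.00209 and 0.0024).

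Its ubiquitous counterpart Cox6a1 rose less, by 0.28 without C3a (edgeR adjusted p = 0.00499). With C3a the change of Cox6a1 was 0.18 at an adjusted p of 0.0387, which 10 of the 12 fits that left out 1 library, and DESeq2 with 0.0507, put above the threshold (up to 0.190); the exceptions were the fits without replicate 2 or 3 of palmitate. Cox6a2 made up 6.93% to 12.2% of the TPM of the pair in vehicle and 14.4% to 17.4% in palmitate, and 6.12% to 13.7% against 13.9% to 16.7% with C3a. The 6 markers of adipocytes and muscle summed to 1.87 to 2.44 CPM in the libraries without palmitate and to 2.05 to 3.47 CPM with it. Most of that sum was the muscle actin Acta1, at 1.53 to 1.99 CPM without palmitate and 1.502 to 2.584 CPM with it. Cidea had 0.117 to 0.714 and 0.303 to 1.03 CPM, and Ckm, Myh1, Adipoq and Ucp1 stayed at or below 0.180 CPM in every library. The part of such cells in the change of Cox6a2 was not tested.

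Cox5b, the subunit that binds zinc, differed between batches, with 49.1 ± 6.51 CPM in the 4 libraries of batch 1 and 103 ± 15.2 CPM in the 8 of batch 2 (SD). Within the batches, Cox5b had 41.4, 89.5 and 90.5 CPM in vehicle, against 56.4, 111 and 125 CPM in palmitate, and 46.6, 85.5 and 93.0 against 52.1, 116 and 116 CPM with C3a. Each palmitate library was above its partner of the same batch. Cox5b rose by 0.41 ± 0.059 without C3a and by 0.31 ± 0.059 with C3a (edgeR adjusted p = 0.000476 and 0.00272). Cox5a and Cox7c rose by 0.31 and 0.30 on average (edgeR adjusted p = 0.000802 and 0.000114), and Cox7a2 by 0.25. Cox4i1, the common isoform of the largest nuclear subunit, rose by 0.18 on average (adjusted p = 0.00242), and without C3a by 0.15 with the replicate block (adjusted p = 0.0210; 0.0569 without the block).

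Cox7a2l, which is built into supercomplexes of complexes III and IV, fell in both palmitate comparisons, the only member to do so without the replicate block; with it Sdhd did as well. It was measured at 193.9, 186 and 209 CPM in vehicle, against 157, 145 and 168 CPM in palmitate. With C3a it was measured at 188, 196 and 204 CPM in vehicle, against 151, 151 and 163 CPM in palmitate. All 6 palmitate libraries were below all 6 vehicle libraries. Cox7a2l fell by 0.32 ± 0.063 and 0.34 ± 0.063 on the log2 scale (edgeR adjusted p = 0.00302 and 0.00217).

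Cox4i2, the isoform of Cox4i1 known to be induced by low oxygen in some tissues, fell on average by 0.88 at very low levels, 0.862 to 1.07 CPM without palmitate and 0.198 to 0.918 CPM with it. Its edgeR adjusted p was 0.0257, and 6 of the 12 fits without 1 library gave up to 0.0610 (those without replicate 1 of any group, replicate 2 of vehicle with C3a or replicate 3 of palmitate). In batch 2 alone the average log2 change of Cox4i2 was -0.525 and did not pass (adjusted p = 0.180). With no batch term its adjusted p was 0.0785. The summed endothelial markers were lower with palmitate in each same-numbered pair, with ranges that overlapped. Among them Kdr and Emcn were lower without overlap, while the ranges of the other endothelial markers overlapped. Pdgfrb, Rgs5 and Kcnj8 were lower too, but the other pericyte and fibroblast markers overlapped. The sum of that list was higher with palmitate in some pairs, as given above. The part of these cell types in Cox4i2 was not tested. Cox8a rose on average by 0.16 (edgeR adjusted p = 0.0356), a call that ended in 7 of the 12 such fits (up to 0.0920; those without replicate 1 or 2 of vehicle, 2 or 3 of vehicle with C3a, 3 of palmitate, or 1 or 2 of palmitate with C3a). Ndufa4 and Ndufa4l2, an alternative pair of a subunit now assigned to complex IV, had average log2 changes of 0.05 and 0.01, and Cox7a1, at 0.257 to 0.804 CPM, had 0.46 ± 0.31; none of the 3 passed.

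**Figure D4:**
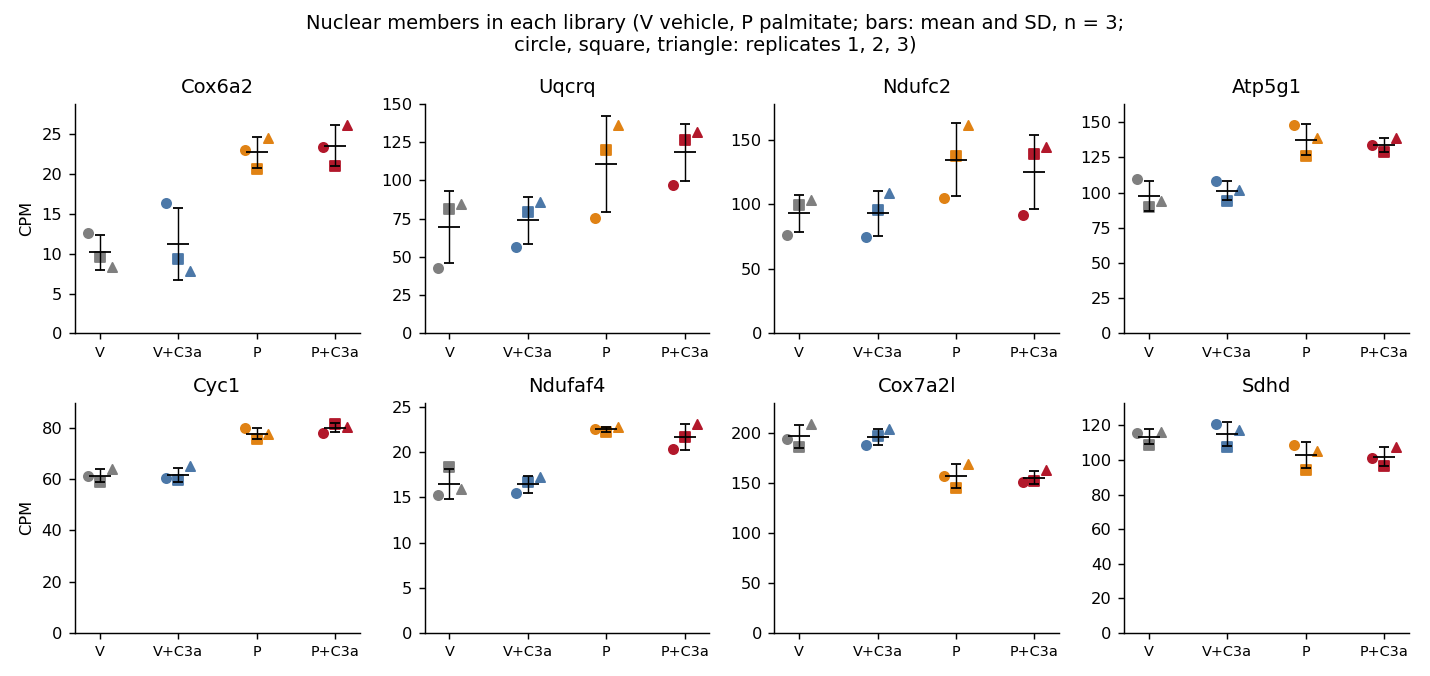
CPM of 8 nuclear members in each library by group, with mean and SD (n = 3); circles, squares and triangles are replicates 1, 2 and 3. In Cox6a2 and Cyc1 the palmitate libraries all lie above the vehicle libraries (Cox6a2 at 20.7 to 26.2 against 7.83 to 16.4 CPM), and in Cox7a2l they all lie below (145 to 168 against 186 to 209 CPM).

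Of the 16 tested nuclear members of complex V, 13 rose on average and 0 fell; 8 rose without C3a and 7 with C3a. Its c-ring is encoded by 3 genes for 1 mature protein. Atp5g1, the first of these, had 109.5, 89.4 and 94.0 CPM in vehicle, against 148, 126 and 138 CPM in palmitate, and 108, 94.2 and 102 against 134, 129 and 138 CPM with C3a. All palmitate libraries were above all vehicle libraries. Atp5g1 rose by 0.50 ± 0.061 and 0.40 ± 0.061 (edgeR adjusted p = 0.000171 and 0.000615), while Atp5g2 and Atp5g3 rose by 0.18 and 0.24 on average (edgeR adjusted p = 0.00853 and 0.000369). Atp5g1 made up 31.2% to 34.1% of the TPM of the 3 genes in the 6 libraries without palmitate and 34.5% to 38.4% with it. Atp5b had 602 to 629 CPM in vehicle and 714 to 767.7 CPM in palmitate, without overlap, and rose by 0.25 (edgeR adjusted p = 0.00146). Atp5mpl, a small membrane subunit, rose by 0.30 on average, and Atp5c1, the rotating gamma subunit, by 0.22.

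Promoters were read to see which sequence features these nuclear genes share. RefSeq promoters (GRCm38.p6, 250 bases before to 50 after the start, 300 in all) matched 78 of the 95 tested nuclear genes. The core of the NRF-1 motif, CGCANGCG, searched on both strands, was present in 31 of the 78 (39.7%) and in 9.22% of the promoters of 27025 genes. Those 27025 genes were not limited to genes expressed in islets or matched to the members for base content. Whether the difference is particular to the respiratory chain was thus not tested. NRF-1 is a known activator of respiratory chain genes. The core was found in 18 of 47 matched genes that rose on average, in 3 of 4 that fell and in 10 of 27 not called, so it was present whichever way a gene moved. The 4 promoters below are shown because they hold the core in members that rose (Cycs, Ndufaf4) and in members that fell (Sdhd, Sdha); the core on either strand is in capitals, and each promoter is written on the gene's own strand.
Cycs, chr6:50566520-50566819, minus strand: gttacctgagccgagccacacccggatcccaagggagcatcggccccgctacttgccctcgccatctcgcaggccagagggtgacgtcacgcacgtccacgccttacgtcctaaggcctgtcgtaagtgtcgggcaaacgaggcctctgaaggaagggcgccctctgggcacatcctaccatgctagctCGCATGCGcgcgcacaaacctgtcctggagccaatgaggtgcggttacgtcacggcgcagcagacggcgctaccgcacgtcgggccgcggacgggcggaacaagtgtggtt
Ndufaf4, chr4:24897833-24898132, plus strand: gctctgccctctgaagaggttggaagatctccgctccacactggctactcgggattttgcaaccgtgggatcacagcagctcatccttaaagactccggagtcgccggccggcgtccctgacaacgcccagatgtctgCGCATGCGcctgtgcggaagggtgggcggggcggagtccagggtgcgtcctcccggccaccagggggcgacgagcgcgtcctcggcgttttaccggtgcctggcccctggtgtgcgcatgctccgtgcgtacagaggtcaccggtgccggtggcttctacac
Sdhd, chr9:50603800-50604099, minus strand: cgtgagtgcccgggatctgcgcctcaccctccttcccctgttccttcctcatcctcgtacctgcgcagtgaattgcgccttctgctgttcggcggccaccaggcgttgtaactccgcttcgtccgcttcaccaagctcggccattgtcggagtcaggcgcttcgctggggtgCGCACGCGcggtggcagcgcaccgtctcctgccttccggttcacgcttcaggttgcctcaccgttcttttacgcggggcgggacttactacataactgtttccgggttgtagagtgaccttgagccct
Sdha, chr13:74350191-74350490, minus strand: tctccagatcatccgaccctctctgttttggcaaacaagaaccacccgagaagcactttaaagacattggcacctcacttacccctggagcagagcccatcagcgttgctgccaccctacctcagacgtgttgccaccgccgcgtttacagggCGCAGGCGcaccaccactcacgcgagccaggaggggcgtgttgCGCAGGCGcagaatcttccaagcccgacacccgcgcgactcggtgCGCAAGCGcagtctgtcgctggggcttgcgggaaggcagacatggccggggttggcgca
The promoter of Sdha held 3 cores and the others 1 each. The YY1 core AAGATGGC (either strand) was found in 14.1% of the members and 3.19% of all genes, and the ETS and GABP core CCGGAAGT (either strand) in 6.41% and 4.31%. A match is a description of the letters and does not show that a factor was bound.

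The mitochondrially encoded genes were measured gene by gene. mt-Cytb, cytochrome b of complex III, had 2799, 3536 and 3290 CPM in vehicle, against 1947, 3169 and 3101 CPM in palmitate. With C3a it had 2258, 3760 and 2731 CPM in vehicle, against 2455, 3232 and 2895 CPM in palmitate. Each palmitate library was below its partner without C3a, and 1 of 3 was below with C3a, where the groups overlapped. The log2 change of mt-Cytb was -0.25 ± 0.12 without C3a and -0.01 ± 0.12 with it (edgeR adjusted p = 0.148 and 0.949).

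The complex I subunits mt-Nd1, mt-Nd2, mt-Nd4 and mt-Nd4l had log2 changes of -0.09, -0.24, -0.27 and -0.30 without C3a and of 0.07, -0.12, -0.08 and -0.05 with C3a. mt-Nd5 had 3018, 3136 and 2916 CPM in vehicle, against 1951, 2906 and 2324 CPM in palmitate, and it was the only mitochondrial gene whose vehicle and palmitate ranges did not overlap. Its log2 change was -0.35 ± 0.17 (edgeR adjusted p = 0.176), and with the replicate block it was -0.36 at an adjusted p of 0.0499. The complex IV subunits mt-Co1, mt-Co2 and mt-Co3 had -0.12, -0.10 and -0.10 without C3a and 0.06, 0.01 and -0.08 with C3a. The ATP synthase subunits mt-Atp6 and mt-Atp8 had -0.14 and -0.12, and -0.09 and -0.17. In all, 7 of the 13 were lower in all 3 pairs without C3a, and 0 with C3a. By pair, 13, 9 and 8 were lower without C3a and 5, 12 and 2 with C3a (replicates 1, 2 and 3). The same count was not made over all genes tested, so the 7 have no background share beside them. Leaving out replicate 3 of vehicle with C3a put 3 of the 13 past the threshold in the average effect, mt-Atp6, mt-Co3 and mt-Nd2, at log2 changes of -0.15, -0.12 and -0.24.

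In same-numbered pairs the median log2 difference of the 13 between palmitate and vehicle was -0.44, -0.04 and -0.07 for replicates 1, 2 and 3, and 0.07, -0.25 and 0.06 with C3a. Between C3a and no C3a it was -0.29, 0.16 and -0.26 in vehicle and 0.29, -0.10 and -0.10 in palmitate. Replicates differed in sign in 3 of these 4 comparisons, the exception being palmitate against vehicle without C3a. Within groups of batch 2 the median SD between libraries was 0.18 on the log2 scale for the 13, 0.089 for the nuclear genes and 0.11 for all genes tested. The nuclear medians were 0.15, 0.10 and 0.25 without C3a and 0.05, 0.22 and 0.14 with C3a, all positive.

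mt-Nd6 separated the batches. It had 900.3, 734, 581 and 713 CPM in the 4 libraries of batch 1 (vehicle, vehicle with C3a, palmitate, palmitate with C3a) and 7.14 to 17.1 CPM in the 8 of batch 2. It was 1 of 249 genes at least 10-fold higher in batch 1. Of these 249, 70.3% overlap an annotated gene on the opposite strand, beside 43.7% of all tested genes, and the source of the batch difference was not tested. With the batch as a term, its log2 changes with palmitate were 0.01 ± 0.26 and 0.12 ± 0.27. These values average pairs that differed in direction. Without C3a, mt-Nd6 went from 900.3 CPM in vehicle to 581 CPM in palmitate in batch 1. In batch 2 it went from 12.3 to 17.1 and from 10.0 to 12.1 CPM. With C3a it went from 734 to 713, from 11.4 to 11.7 and from 7.14 to 10.2 CPM (replicates 1, 2 and 3). No other tested member was 1.5-fold higher in batch 1, and 5 were at least 1.5-fold higher in batch 2 (Cox5b, mt-Nd1, Uqcrq, Cycs and Cox8a). Sequencing batch is part of the model, and every comparison holds 1 pair of batch 1 and 2 pairs of batch 2.

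**Figure D5:**
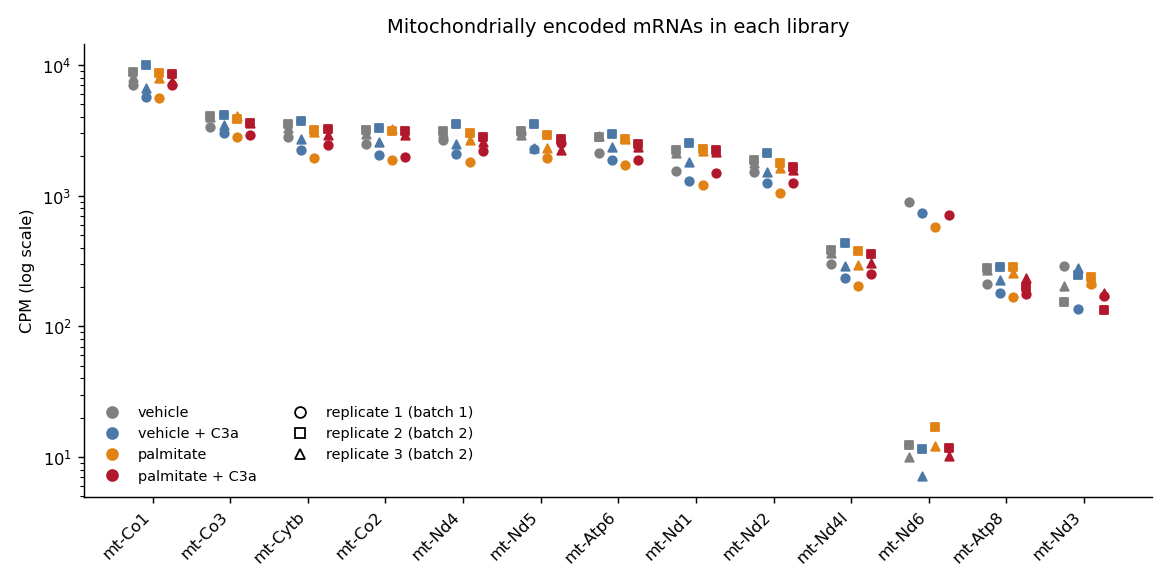
CPM of the 13 mitochondrially encoded genes in each library on a log axis, ordered by mean; colours are groups and symbols are replicates, with replicate 1 from batch 1. Palmitate and vehicle overlap in every gene with C3a and in all but mt-Nd5 without it, and mt-Nd6 lies at 581 to 900.3 CPM in batch 1 and at 7.14 to 17.1 CPM in batch 2.

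Near-identical copies can take or give counts. Searching transcripts with BLAST (at least 95% identity over 200 aligned bases), with hits kept only in annotated pseudogenes, found 39 copies of 27 members. Similar transcripts of other gene types, or among the members themselves, were not counted. Of the 39, 9 were copies of mitochondrial genes, and these 9 held 3.72% as many counts as the mitochondrial genes. The copy of mt-Nd3 held 60.7% as many counts as mt-Nd3 itself. mt-Nd3 had 288, 154 and 203 CPM in vehicle, against 212, 238 and 219 CPM in palmitate; with its copy added, its highest library was 1.82 times its lowest in place of 2.15 times. With C3a mt-Nd3 passed the test in batch 2 alone (log2 change -0.75, adjusted p = 0.0385) and without replicate 1 of vehicle with C3a (-0.79, adjusted p = 0.0441), and with its copy added its log2 change over all libraries was -0.20 (edgeR adjusted p = 0.137). Ndufb4 held fewer counts than its copy Ndufb4c, which had 227% of them, and the level of Ndufb4 alone is uncertain. With copies added, Atp5g2 also rose with C3a (log2 change 0.16, adjusted p = 0.0313).

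C3a was compared with no C3a within vehicle and within palmitate; each of these shares its libraries with the palmitate comparisons above. No member passed the test in vehicle, in palmitate, in the average C3a effect or in the interaction (edgeR; DESeq2 also called 0 members in each). Over all genes the shares called were 0%, 0%, 0.00633% and 0%. At an unadjusted p under 0.05 there were 0, 1, 3 and 0 of the 108 members. The log2 changes of nuclear members ran from -0.30 to 0.26 in vehicle and from -0.31 to 0.32 in palmitate, with medians of 0.01 and -0.02. Those of the mitochondrial genes ran from -0.28 to 0.04 and from -0.47 to 0.09, with medians of -0.14 and 0.03.

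The members with the smallest unadjusted p did not pass the threshold. In vehicle these were Cox6a1, Ndufv2 and Ndufaf6, with log2 changes of 0.13, 0.13 and 0.26 and an edgeR adjusted p of 1.00. In palmitate Ndufb6 had 43.5, 41.4 and 44.4 CPM without C3a and 35.1, 39.5 and 38.6 CPM with it, 2 ranges that did not overlap. Its log2 change was -0.19 ± 0.075 (unadjusted p = 0.0277). Cox7a2 and Ndufs1 followed with -0.11 and -0.07. On average Ndufb6, Ndufa1 and mt-Atp8 had -0.13, -0.13 and -0.17. In the interaction, Ndufv2, Ndufaf6 and Sdhc had -0.19, -0.29 and -0.12. For the marker members, the average C3a effect was -0.01 ± 0.042 for Cox5b, 0.03 ± 0.035 for Cyc1 and -0.03 ± 0.083 for mt-Cytb (log2, SE).

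Other genes of mitochondrial respiration were counted from lists, in the average palmitate effect (20.3% of all genes rose and 19.4% fell). Of 40 assembly factors outside the symbol rule 13 rose and 0 fell, led by Sco2, a copper carrier of complex IV, at a log2 change of 0.74. Of 30 genes of mitochondrial transcription, replication and RNA handling 12 rose and 1 fell, with Rexo2, Fastkd2 and Supv3l1 at 0.38, 0.37 and 0.39 and Mterf2 lower at -0.38. Of 12 regulators of mitochondrial biogenesis 6 rose and 3 fell. Ppargc1a, the coactivator PGC-1alpha, had 3.02, 2.35 and 2.62 CPM in vehicle, against 7.59, 7.56 and 6.34 CPM in palmitate, without overlap, and rose by 1.46 ± 0.11 on average (edgeR adjusted p = 2.15e-06). Myc and Pprc1 rose by 1.01 and 0.43, and the 3 that fell were Esrrg, Yy1 and Gabpa, at -0.33, -0.17 and -0.10.

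Of 13 genes of coenzyme Q synthesis 4 rose and 1 fell. The one that fell was Coq8a, a kinase-like protein of that pathway, from 25.9 to 29.1 CPM in vehicle to between 11.8 and 14.4 CPM in palmitate, and its average log2 change was -1.23 ± 0.068 (edgeR adjusted p = 2.34e-07). Coq7 and Coq3 rose by 0.51 and 0.55. Of 18 citric acid cycle genes 7 rose and 1 fell, with Idh3a and Cs higher by 0.28 and 0.22. Of 16 genes of electron entry, uncoupling and ATP exchange 9 rose and 3 fell, with the ADP/ATP carrier Slc25a5, the electron transfer flavoprotein Etfb and the channel Vdac3 at 0.43, 0.63 and 0.40. The 3 that fell were Gpd2, the mitochondrial glycerol phosphate dehydrogenase, at -0.64, Ckmt1 at -0.25 and Sqor at -0.17 (edgeR adjusted p = 1.37e-05, 0.00811 and 0.00158). Genes of 2 stress responses moved beside these: 11 of 15 hypoxia genes rose (median log2 change 0.84) and 15 of 15 genes of the integrated stress response rose (median 0.88). In the separate comparisons 5 hypoxia genes rose without C3a and 8 with C3a, and all 15 of the integrated stress response in each. The summed hypoxia genes overlapped, at 1852 to 4156 CPM without palmitate and 3305 to 5719 CPM with it. The part of either response in the changes of the chain was not tested.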

How the data were processed

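The deposited table held unnormalized estimated counts per transcript in whole numbers, and they were used as such. The submitters' processing notes list kallisto, DESeq2 and GRCm38 with no role or version. No source used here states the strand setting or transcriptome release, so genes that overlap on opposite strands are uncertain. Libraries were made with a TruSeq Stranded mRNA kit, per the labels' protocols.

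Of 71524 transcripts, 69942 matched GENCODE M21 and were summed to genes; the 1582 others held 0.581% to 0.677% of a library's counts. Counts were filtered (filterByExpr, 15794 genes kept), scaled by TMM and fitted with edgeR 4.0.16 (R 4.3.3), robust quasi-likelihood, with group and sequencing batch as terms over all 12 libraries, leaving 7 residual degrees of freedom. A gene counted as called when its two-sided p, adjusted by Benjamini-Hochberg over all genes of a comparison, was under 0.05. The SE is the absolute log2 change divided by the square root of F. CPM and TPM were computed from the counts, TPM with annotated lengths. The fit was also run on simulated counts that held no batch difference, which cannot show how it does with the batches of these data. DESeq2 1.42.0 was an alternative, beside other scaling, no filter, no batch term, batch 2 alone, fewer groups, protein-coding transcripts alone, copies added (BLAST 2.17.0) and leaving out each library. P-values measure only the spread between these libraries, which may be technical.

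The labels put replicate 1 of each group in batch 1 and give replicates 2 and 3 a tag that the groups share. Deviations of same-numbered libraries from their group means correlated at 0.395 or more in all 18 pairs. Those correlations include the difference between batches, because replicate 1 of every group is from batch 1, so they cannot show pairing by themselves. That the numbers pair the libraries was taken as an assumption, and a second fit used the replicate number as a block.

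The members and lists were chosen with earlier results of these data known. Named genes were the given markers, complex II and its factors, mitochondrial genes, isoform pairs, up to 3 called members with the highest and lowest change in each class (at least 5 CPM), the 3 smallest p-values where no member was called, and up to 3 of each other list; further members are named where a count or contrast needed it (Ndufs1, Uqcr10, Ndufb4, the few genes of other lists that fell, and single marker genes), chosen after their values were seen. Results for some genes that this rule names are not reported here.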

Additional observations from a re-analysis of the deposited data

How the results depend on the processing

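The median change of the nuclear genes stayed positive in each alternative run (0.09 to 0.21), and that of the mitochondrial genes stayed negative but for the 2 fits with C3a named above. The nuclear genes that rose without C3a numbered 38, but 9 with no batch term, 19 in batch 2 alone and 24 to 49 when 1 library was left out. With C3a they numbered 33, but 11 with no batch term, 18 in batch 2 alone and 17 to 34 when 1 library was left out. In the average effect 59 became 28 with no batch term. Nuclear genes that fell were 1 without C3a (1 to 2 when 1 library was left out), 3 with C3a (1 with no batch term, 1 in batch 2 alone, 1 to 4 when 1 library was left out) and 5 on average (3 with no batch term, 1 in batch 2 alone). Called mitochondrial genes, 0 in each, became 1 with C3a in batch 2 alone (mt-Nd3), 0 to 1 with C3a when 1 library was left out and 0 to 3 on average when 1 library was left out. Dropping the batch term leaves the batch difference in the residual spread, and batch 2 alone has fewer libraries; the cause of the other shifts was not tested.

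With the replicate number as a block, 51 nuclear genes rose without C3a, 36 with C3a and 64 on average, 2 fell without C3a (Sdhd beside Cox7a2l) and 1 mitochondrial gene, mt-Nd5, was called without C3a. The block changed the call of 5 named results (Sdhd in both comparisons, and Cox4i1, Sdhaf1 and mt-Nd5 without C3a) and of no other. Of the calls of named members, 19 of 24 without C3a, 14 of 21 with C3a and 27 of 32 on average held in all 12 fits that left out 1 library; beside those given above, Atp5g2, Atp5mpl and Sdhc without C3a, and Cox4i1, Cox7a2, Sdha and Sdhaf4 with C3a, lost theirs in 2 to 7 of them. With shorter letters, GCGCA for NRF-1 and CGGAAG for ETS, 66.7% and 46.2% of the members held the motif, and 32.9% and 18.8% of all genes.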
